A study of Mus musculus with 4 samples.

Results

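The 8 genes described here hold a nuclear receptor and a coactivator that control the use of fat as fuel in the liver, and 6 enzymes that carry it out. They are Ppara and Ppargc1a, Cpt1a and Cpt2 of the carnitine shuttle, the acyl-CoA dehydrogenases Acadvl, Acadl and Acadm, and Hadha of the trifunctional protein. They were chosen by name, and every non-control probe whose transcript belongs to one of them was taken. This gave 11 probes, 1 for each of 5 genes and 2 each for Ppara, Ppargc1a and Cpt2, out of 56605 probes and 22911 named genes on the array.

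RNA of fetal livers from C57BL/6J mice just over 14 days into gestation was hybridised to 4 single-colour arrays, 2 from CD-fed dams and 2 from HFD-fed dams. The CD took 4.3% of its energy from fat, 19.2% from protein and 67.3% from carbohydrate, and the HFD 60% from fat, 20% from protein and 20% from carbohydrate. The diets were given to the dams while they were pregnant, and no other treatment or allele separated the groups. The number of fetuses or dams behind an array is not given in the sources used here, so the p-values measure only the spread between these arrays, which may be technical.

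Long-chain fatty acids are bound to coenzyme A in the cytosol and cannot cross the inner mitochondrial membrane in that form. CPT1A on the outer membrane moves the acyl group to carnitine, and CPT2 on the inner membrane moves it back. In the matrix each turn of the oxidation spiral starts with an acyl-CoA dehydrogenase, and the membrane-bound trifunctional protein carries out the remaining steps on long chains. PPAR-alpha is a receptor for fatty acids that binds DNA as a heterodimer with RXR at pairs of the hexamer AGGTCA, and it switches these genes on in the fasted or suckling liver. PGC-1alpha, the product of Ppargc1a, is a coactivator of PPAR-alpha. Before birth, glucose from the placenta is the main fuel of the fetus, and fat oxidation in the liver rises sharply after birth.

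The promoter windows were read from RefSeq, assembly GRCm38.p6, as 250 bases before and 50 after each gene's start. All 8 genes matched. The 3 windows that hold this hexamer are shown, since this is the element through which the receptor among these genes is known to bind. Each is written 5′ to 3′ on the strand of the gene, with AGGTCA or its reverse complement TGACCT in capitals.
Cpt1a (chr19:3323051-3323350, + strand): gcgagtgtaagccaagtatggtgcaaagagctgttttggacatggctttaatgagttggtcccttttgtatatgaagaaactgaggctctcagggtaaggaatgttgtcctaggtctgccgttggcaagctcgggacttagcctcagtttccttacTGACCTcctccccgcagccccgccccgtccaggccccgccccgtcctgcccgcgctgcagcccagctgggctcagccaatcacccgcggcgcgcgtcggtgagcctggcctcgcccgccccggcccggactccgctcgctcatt
Acadm (chr3:153944594-153944893, - strand): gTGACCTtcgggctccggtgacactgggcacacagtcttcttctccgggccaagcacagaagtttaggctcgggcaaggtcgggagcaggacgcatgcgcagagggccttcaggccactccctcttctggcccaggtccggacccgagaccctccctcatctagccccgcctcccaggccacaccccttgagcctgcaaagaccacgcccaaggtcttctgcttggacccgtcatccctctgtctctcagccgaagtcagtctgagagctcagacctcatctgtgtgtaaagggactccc
Acadvl (chr11:70015379-70015678, - strand): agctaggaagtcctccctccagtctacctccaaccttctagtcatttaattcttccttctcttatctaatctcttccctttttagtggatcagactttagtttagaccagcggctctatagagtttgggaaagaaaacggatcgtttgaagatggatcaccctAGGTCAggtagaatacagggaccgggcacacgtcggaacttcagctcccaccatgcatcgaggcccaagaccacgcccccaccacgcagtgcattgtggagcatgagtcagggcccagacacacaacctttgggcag

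The match begins 94 bases before the start of Cpt1a, 249 before that of Acadm and 87 before that of Acadvl. It lies on the gene's own strand in Acadvl and on the opposite strand in Cpt1a and Acadm. The same 6 letters, on either strand, were in 16.3% of 32851 RefSeq windows of this length. A direct repeat of the hexamer with 1 base between, the form bound by PPAR-alpha and RXR, was in none of the 8 windows with up to 2 mismatches on either strand, and in 3.86% of all windows. The extended form TCAAGGTCA, bound by the ERR receptors, and the cAMP response element TGACGTCA were in none of the 8, and in 0.423% and 1.79% of all windows on either strand. The GC box GGGCGG was in 5 of the 8 windows (Ppara, Cpt1a, Cpt2, Acadl and Hadha) and in 35.7% of all, and CCAAT in Cpt1a alone of the 8 and in 37.4% of all. A match describes these letters in this window only, and sites farther away were not searched. The Hadha window overlaps that of Hadhb, the gene of the other subunit of the trifunctional protein, by 228 bases, since the genes start 273 bases apart on opposite strands of chromosome 5. The GC content of the 8 windows ran from 48.7% for Ppargc1a to 74.7% for Ppara, against a median of 52.7% over all windows.

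Before the values of the 8 genes, some facts of the arrays bear on how they can be read. The arrays shared 1 slide and 1 scan, and no spot was saturated. The 75th percentile of the signal, by which each array was scaled, was 1073 and 704 on CD arrays 1 and 2, and 969 and 909 on HFD arrays 1 and 2. The CD arrays differed from each other by more (SD of the log2 difference over probes 0.58) than the HFD arrays did (0.34). All 4 samples are labelled female. However, all 7 probes of the Y-linked genes Ddx3y, Eif2s3y, Kdm5d and Uty were well above background on CD array 1 and HFD array 1, and none was on CD array 2 or HFD array 2, while Xist was well above background only on the arrays numbered 2. Each group thus held 1 array with and 1 without Y-linked transcripts, and values of the arrays that share a number are given beside the pooled ones. Albumin (Alb), Afp and the other hepatocyte and hepatoblast markers, 16 of 16, were well above background on every array, as were all 15 erythroid markers with a probe.

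Each of the 11 probes exceeded background clearly on all 4 arrays and passed the filters. No probe passed the test between the groups. With limma and Benjamini-Hochberg adjustment, 0 of the 11 had an adjusted p under 0.05, as did 0 of 41332 probes tested (percent called, 0). At an unadjusted p under 0.05 the 11 probes also gave 0, against 3.35% of all tested probes, and the smallest unadjusted limma p among them was 0.194, for Acadvl. With 2 arrays a group an exact permutation test cannot give a p under 0.333.

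Ppara is described first, as the receptor. A level is the log2 signal minus the log2 of the array's 75th percentile, so that 0 is the signal of a probe at that percentile. Pairs of levels are given in the order array 1, array 2. On its brighter probe the level of Ppara was 0.93 and 1.26 on CD arrays 1 and 2, and 1.28 and 1.09 on HFD arrays 1 and 2. The groups overlapped, with CD array 1 lowest and the HFD arrays on either side of CD array 2. The log2 difference, HFD minus CD, was 0.09 ± 0.20 (SE, n = 2 a group, limma, adjusted p = 1.00), a 1.06-fold ratio with a 95% interval of 0.734 to 1.54. On the dimmer probe the levels were -0.48 and -0.24 in the CD group against -0.13 and -0.25 in the HFD group. Its difference was 0.17 ± 0.18, in the same direction and also overlapping.

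Ppargc1a, the coactivator, had a level of -0.35 and -0.12 in the CD group against 0.00 and -0.16 in the HFD group by its brighter probe. The difference was 0.16 ± 0.18 (limma, adjusted p = 1.00). Its dimmer probe went the other way, with levels of -2.40 and -2.13 in the CD group against -2.39 and -2.48 in the HFD group, and a difference of -0.17 ± 0.18. Neither probe separated the groups. The probes of 1 gene therefore gave no common direction for Ppargc1a. Both probes carry the same transcript in the array files, as do the pairs of Ppara and of Cpt2.

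In the carnitine shuttle, Cpt1a, the enzyme that sets the pace of fatty acid entry and is held back by malonyl-CoA, showed the smallest gap between the CD arrays among the 8 genes. Its level was 1.56 and 1.58 in the CD group against 1.70 and 1.63 in the HFD group. Both HFD arrays lay above both CD arrays, by a margin of 0.05 between the nearest arrays. The difference was 0.09 ± 0.16, a 1.07-fold ratio with a 95% interval of 0.796 to 1.43.

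Cpt2 had a level of 3.66 and 3.94 in the CD group against 3.96 and 3.95 in the HFD group by its brighter probe. The HFD arrays were above both CD arrays, with 0.01 between the nearest arrays, and the difference was 0.15 ± 0.18. The dimmer Cpt2 probe, with a signal of 122 to 204, gave a level of -3.14 and -1.79 in the CD group against -2.76 and -2.88 in the HFD group. CD array 2 stood alone at the top here, and CD array 1 was the lowest of the 4. Its difference was -0.36 ± 0.48, opposite in sign to that of the brighter probe.

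Among the acyl-CoA dehydrogenases, Acadvl acts on the longest chains, Acadl on long chains and Acadm on medium chains. Acadvl had a level of 4.31 and 4.43 in the CD group against 4.67 and 4.57 in the HFD group. The HFD arrays lay above the CD arrays with a margin of 0.14, the widest of the 8 genes. The difference was 0.25 ± 0.17, a 1.19-fold ratio with a 95% interval of 0.878 to 1.62.

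Acadl had a level of 3.31 and 3.65 in the CD group against 3.77 and 3.66 in the HFD group. HFD array 2 was above CD array 2 by only 0.01, so that the order rests on a margin far below the gap of 0.34 between the CD arrays. The difference was 0.23 ± 0.20, a 1.17-fold ratio with a 95% interval of 0.818 to 1.69.

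Acadm had a level of 3.90 and 4.35 in the CD group against 4.21 and 4.16 in the HFD group. Both HFD arrays fell between the CD arrays, and the difference was 0.06 ± 0.22, with a 95% interval of the ratio from 0.697 to 1.56.

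Hadha, the subunit of the trifunctional protein that holds the hydratase and long-chain hydroxyacyl-CoA dehydrogenase activities, had a level of 1.19 and 1.66 in the CD group against 1.39 and 1.38 in the HFD group. The HFD arrays were 0.01 apart and again lay between the CD arrays. The difference was -0.05 ± 0.22, with a 95% interval of the ratio from 0.645 to 1.46. Hadhb, which shares the promoter region and is not one of the 8, had a level of 4.45 and 4.88 in the CD group against 4.82 and 4.76 in the HFD group. Its HFD arrays likewise lay between the CD arrays, with a difference of 0.12 ± 0.21.

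**Figure D1:**
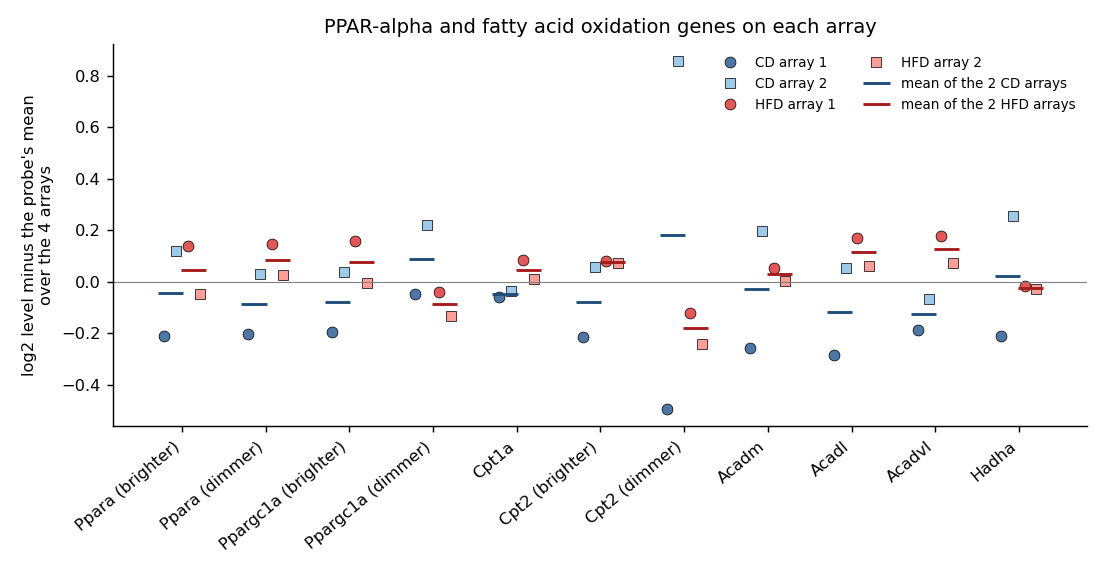
Log2 level of each of the 11 probes on the 4 arrays, minus the probe's mean over the arrays (vertical axis), with circles for the arrays numbered 1, squares for those numbered 2, and bars for the means of 2 arrays. CD array 1 was the lowest of the 4 for 10 of 11 probes, and the CD arrays were farther apart than the HFD arrays for 10 of 11. The median over all genes was also lowest on CD array 1.

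By the brightest probe of each gene, 7 of the 8 genes had a higher mean in the HFD group, as did 57.7% of all genes tested, and the differences ran from -0.05 for Hadha to 0.25 for Acadvl. In the fit of all 4 arrays, the 95% interval of these 8 probes excluded a 2-fold difference in either direction. The outermost bounds were a ratio of 0.645 for Hadha and 1.69 for Acadl. This was not examined in the fits that leave out an array. The dimmer Cpt2 probe had an interval of 0.324 to 1.87, which does not exclude a 2-fold decrease. Smaller differences in either direction lie inside these intervals and were not detectable with 2 arrays a group. Both HFD arrays lay above both CD arrays for 4 of the 8 (Cpt1a, Cpt2, Acadl and Acadvl) and below for none. Over the brightest probes of all genes tested, 23.1% lay above and 10.1% below in this way. Counted over probes, it was 4 of 11 above and 0 below, against 19.5% and 11.1% of all tested probes.

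The spread inside the CD group was large beside most of these differences. The gap between the CD arrays was larger than the difference between the group means for 6 of the 8 genes, the exceptions being Cpt1a and Acadvl, and for 72.8% of all tested probes. Its median over the 8 genes was 0.30, against 0.09 for the gap between the HFD arrays. CD array 2 was above CD array 1 for all 8 genes, and HFD array 1 was above HFD array 2 for all 8. Over the 8 genes the median level, centred on each gene's mean, was -0.21 and 0.06 in the CD group against 0.11 and 0.01 in the HFD group. Over all genes it was -0.10 and 0.04 against 0.01 and 0.03, so CD array 1 was lowest there too. The share of all genes with the array orders of the 8 was not computed.

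The arrays that share a number gave different pictures. Between the arrays numbered 1, which carried Y-linked transcripts, all 8 genes were higher in the HFD sample, by 0.14 for Cpt1a to 0.45 for Acadl, with a median of 0.33 against 0.09 over all genes tested, of which 60.9% were higher. Between the arrays numbered 2, 4 of the 8 were higher (Cpt1a, Cpt2, Acadl and Acadvl) and 4 lower, from -0.28 for Hadha to 0.14 for Acadvl, with a median of -0.02 against 0.02 over all genes tested, of which 52.8% were higher. Each of these is 1 array against 1, and there is no replicate check. Whether the difference in these values follows the sex of the fetuses, the number or the single samples cannot be told apart, since 1 array stands for each.

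**Figure D2:**
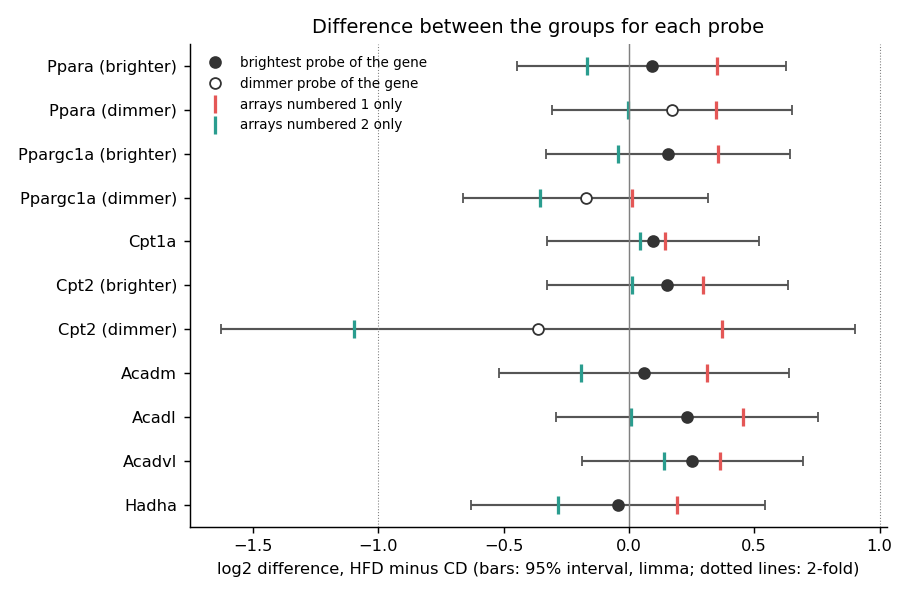
Log2 difference, HFD minus CD, of each probe (horizontal axis), as the fitted value with its 95% interval from limma and as the difference between the arrays numbered 1 and between those numbered 2. All 11 intervals include 0, and for Ppara, Ppargc1a, Acadm and Hadha by the brightest probe the arrays numbered 1 and 2 fall on opposite sides of it.

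Leaving out 1 CD array at a time moved the values in opposite directions. Without CD array 1 the median difference of the 8 genes was 0.03, and Ppara (-0.07), Acadm (-0.17) and Hadha (-0.28) were lower in the HFD group. Without CD array 2 it was 0.28, and all 8 were higher, from 0.11 for Cpt1a to 0.40 for Acadl. Acadl alone among the 11 probes then fell below 0.05 before adjustment (limma, adjusted p = 0.335), and without CD array 1 the dimmer Cpt2 probe alone did (difference -1.04). Of all tested probes, 14.8% fell below 0.05 in the first of these fits and 20.8% in the second, so that 1 of 11 is no more than the background. Without HFD array 1 the median was 0.07, and without HFD array 2 it was 0.17. In these fits a lone array is taken to vary like the arrays of the other group.

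Markers of the cell types in the sample also differed between the arrays. In RNA of whole tissue, fewer cells of a type and less RNA per cell cannot be told apart. All 16 hepatocyte and hepatoblast markers were lowest on CD array 1, and 13 were highest on CD array 2 and 3 on HFD array 1. The list had a median centred level of -0.28 and 0.25 in the CD group against 0.03 and 0.01 in the HFD group. Their summed level, on a linear scale where 1 is the 75th percentile of an array, was 2354 and 3574 in the CD group against 2869 and 2880 in the HFD group. Alb, for example, had a level of 8.14 and 9.06 in the CD group against 8.53 and 8.54 in the HFD group. The median difference of these markers between the groups was -0.01, and 0 of 16 had an unadjusted p under 0.05.

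Each array was also centred on the median log2 signal of the 16 hepatocyte markers on that array, in place of its 75th percentile. This moves every gene of an array by the same amount, set by the markers of middle brightness. It does not follow the median of the markers' own differences, -0.01, and is no measure of hepatocyte content. The median difference of the 8 genes was then 0.02. All genes tested had a median of -0.07, against 0.04 with the 75th percentile. Ppara (-0.02), Cpt1a (-0.01) and Acadm (-0.05) turned negative, and Acadl (0.12) and Acadvl (0.15) stayed positive. None of the 11 probes had an unadjusted limma p under 0.05 on this scale, against 1.97% of all tested probes.

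The erythroid markers, the other large cell compartment of the liver at this age, had medians of -0.28 and 0.15 in the CD group against 0.07 and 0.08 in the HFD group. Their summed level was 1897 and 2690 in the CD group against 2173 and 2355 in the HFD group. Of the 15, 1 had an unadjusted p under 0.05, the embryonic globin Hbb-bh1, which was higher in the HFD group. The 13 skeletal and cardiac muscle markers ran the other way between the CD arrays, at 0.40 and -0.36, and stood at -0.22 and 0.08 in the HFD group, with a summed level of 131 and 72.0 in the CD group against 81.2 and 107 in the HFD group. This list is given because muscle also oxidises fatty acids. Its median difference between the groups was -0.03, with 4 of 13 positive. The kidney list (0.47) and the gonad and adrenal list (0.66), given with the processing, had higher medians. All 13 muscle markers were measured well above background on each array. Of the 8 adipose markers, Adipoq and Ucp1 did not rise well above background anywhere, and the 5 that were tested gave no unadjusted p under 0.05. One of those 5 is Ppargc1a itself. The trophoblast markers had the largest median difference of the 10 marker lists, mostly from genes that were not tested. Over the 13 with a probe the median difference was -3.80. The median centred levels were 1.06 and 2.75 in the CD group against -0.95 and -2.56 in the HFD group. Their summed level was 99.5 and 128 against 78.3 and 93.0. On the HFD arrays Psg23 and Gcm1 had the highest levels of this list and so weighed most in that sum. Their differences were -0.19 and 0.55, so the sum does not follow the list median. Of the 13, 9 were left out of the test, 6 by the CV filter and 3 as dim, and 10 were well above background on each array. The part of any of these cells in the values of the 8 genes was not tested.

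**Figure D3:**
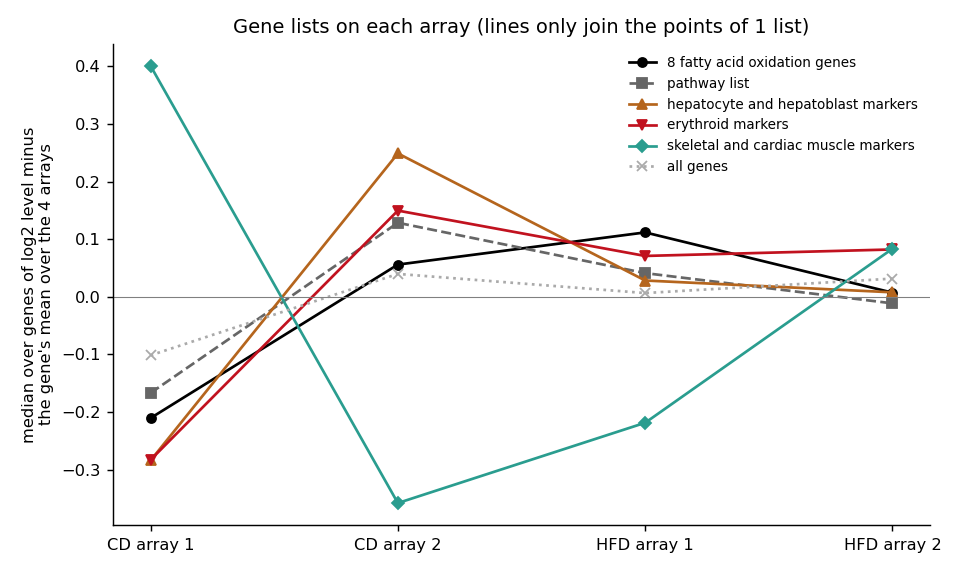
Median over the genes of a list of the log2 level minus the gene's mean over the 4 arrays (vertical axis), for the 8 genes, the pathway list, 3 marker lists and all genes, on each array (horizontal axis). On CD array 1 the 8 genes stood at -0.21, the hepatocyte markers at -0.28 and the muscle markers at 0.40, while on HFD array 1 the 8 genes stood at 0.11 and the hepatocyte markers at 0.03.

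The rest of the pathway was followed in a list of 97 further genes in 8 role groups, all with a probe, of which 94 were tested by their brightest probe. The median difference over the 94 was 0.06, against 0.12 for the 8 genes and 0.04 for the 18183 genes tested. Of the 94, 56 had a positive difference, against 57.7% of all genes tested. That share is the background for the counts of higher genes in the role groups below, some of which are small. At an unadjusted limma p under 0.05, 1 of the 94 was higher in the HFD group and 0 were lower, against 2.84% of the genes tested, and none passed the adjustment over all probes. Both HFD arrays lay above both CD arrays for 23 of the 94 and below for 2, against the 23.1% and 10.1% of all genes given above. Between the arrays numbered 1 the median of the list was 0.23, and between those numbered 2 it was -0.11.

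The gene with the small p was Cyp4a12b, a fatty acid omega-hydroxylase. Its level was -5.87 and -6.62 in the CD group against -5.44 and -5.40 in the HFD group, and it was well above background on the HFD arrays only. By the group means it was 1.77-fold higher on the HFD arrays, with each CD array entered at its own signal. This ratio is an estimate only, since neither CD signal was well above background. The fitted ratio had a 95% interval of 1.03 to 3.06. The limma p was 0.0426 before adjustment and 1.00 after it. The related Cyp4a14 and Cyp4a10, which PPAR-alpha activates in adult liver, did not rise well above background on any array, nor did Cyp4a12a. Neither did Acsm5, an acyl-CoA synthetase. Fgf21, a hormone induced by PPAR-alpha in fasting, was well above background on 1 CD array and no HFD array.

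Among the receptors, partners and cofactors, 8 of 19 had a positive difference. The median of this group was -0.0039 and its range went from -0.44 to 0.27. Rxra, the partner of PPAR-alpha in the heterodimer, had a level of 4.54 and 4.51 in the CD group against 4.63 and 4.54 in the HFD group. Its difference was 0.06 ± 0.16. Rxrb differed by 0.01 ± 0.16.

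In fatty acid activation, where coenzyme A is attached, 7 of the 9 genes tested were higher, with a median of 0.12. Acsl1, the main long-chain acyl-CoA synthetase of liver, had a level of 3.88 and 4.42 in the CD group against 4.23 and 4.23 in the HFD group, so that the HFD arrays again lay between the CD arrays. The transporter and synthetase Slc27a2 differed by 0.12 ± 0.24. In the rest of the carnitine shuttle and its control by malonyl-CoA, 6 of 10 were higher, with a median of 0.02. Acaca, which makes malonyl-CoA, had 3.08 and 3.07 in the CD group against 3.11 and 3.07 in the HFD group. Crat, carnitine acetyltransferase, had a difference of -0.10 ± 0.29.

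In the mitochondrial spiral beyond the 8 genes, 7 of 15 were higher, with a median of -0.0029. Acaa2, the thiolase that closes a turn of the spiral, had a level of 5.86 and 6.50 in the CD group against 6.25 and 6.13 in the HFD group, a difference of 0.01 ± 0.27. For the 3 genes that pass electrons from the dehydrogenases to the respiratory chain, all differences were positive, with a median of 0.16. Etfb had 5.70 and 5.94 in the CD group against 5.98 and 5.98 in the HFD group, and Etfa differed by 0.12 ± 0.22.

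In peroxisomal oxidation, which shortens very long chains, 11 of 16 were higher, with a median of 0.09. Decr2 had a level of 6.04 and 5.98 in the CD group against 6.11 and 6.18 in the HFD group. The difference of Decr2 was 0.14 ± 0.16, and that of Scp2 was 0.22 ± 0.21. In ketone body synthesis, which uses the acetyl-CoA of fat oxidation, all 4 differences were positive, with a median of 0.15. Bdh1, beta-hydroxybutyrate dehydrogenase, differed by 0.07 ± 0.17.

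Among the other PPAR-alpha target genes, 10 of the 18 tested were higher, with a median of 0.08. Fabp1, the fatty acid binding protein of liver, had a level of 4.71 and 5.29 in the CD group against 5.41 and 5.32 in the HFD group. Its difference was 0.36 ± 0.25. Plin2, a coat protein of lipid droplets, had 4.34 and 5.10 in the CD group against 4.62 and 4.55 in the HFD group, a difference of -0.13 ± 0.30.

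**Figure D4:**
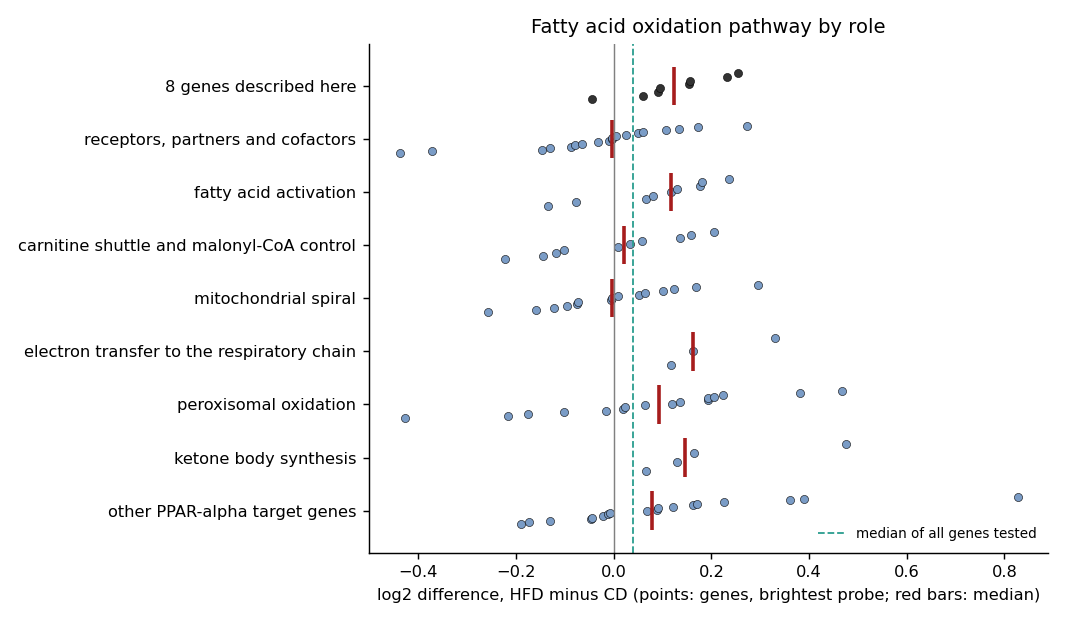
Log2 difference, HFD minus CD, by the brightest probe of each gene (horizontal axis), for the 8 genes and for the tested genes of the 8 role groups of the pathway list, with a red bar at each median and a dashed line at the median of all genes tested, 0.04. The medians ran from -0.0039 for the receptors to 0.16 for electron transfer, and Cyp4a12b at 0.83 was the point farthest to the right.

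The genes whose pattern over the 4 arrays was closest to the median pattern of the 8 were sought among 16505 other genes measured well above background on each array. The measure was the Euclidean distance between centred levels. The closest were Mrpl47, a protein of the mitochondrial ribosome, Sphk1, sphingosine kinase, Dcst1, Pgp, phosphoglycolate phosphatase, and Timm23, a channel of the inner mitochondrial membrane, all at a distance of 0.02. Of the 8 genes themselves, Ppargc1a was the nearest to that median, at 0.05 with 123 other genes closer, and Hadha the farthest, at 0.24 with 5368 closer. A pattern over 4 arrays is shared by many genes, and the likeness is a description only.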

How the data were processed

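Liver RNA was taken at 14.5 days post coitum, and the sample titles gave groups and numbers. The authors labelled cRNA with Cy3, hybridised it to a mouse gene expression array and read the image with Agilent Feature Extraction 11.0.1.1, and they deposited a background-subtracted and detrended intensity for each spot, not scaled between arrays. The deposited flags (outlier, saturated, well above background) are scores of 0 or 1. A second deposited file gives normalized signal, in which each array is its intensity divided by 1 constant, so that values are relative to the array's 75th percentile, with no log and no centring of genes. The medians of its columns were 0.305 and 0.276 for the CD arrays, and 0.286 and 0.293 for the HFD arrays.

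The log2 intensity of a probe was the mean over its spots without an outlier flag, minus the array's 75th percentile over non-control probes. With filters adapted from the study's methods, 14980 probes that fell under the 20th percentile somewhere, and probes with all spots flagged on an array, or with a CV over 50% in both groups (284), were left out, and 41332 stayed. In this the linear CV departs from the study, whose filter was on the log scale. The test was limma 3.58.1 (R 4.3.3, moderated by eBayes, no covariates), with Benjamini-Hochberg adjustment over all of them. A gene is represented by its probe with the highest mean signal. Transcripts were matched to RefSeq symbols (GRCm38.p6), which named 32994 of 56605 probes. The array was designed on another build, and only promoter coordinates are given. The number of arrays limits the precision. The fit was tested on simulated data. Alternatives changed the scaling, background correction, filters, handling of spots and probes, test, block and arrays used.

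The 8 genes and all lists were chosen with earlier results of these data known. The genes named are the 8, every gene of the pathway list with a p under 0.05 by its brightest probe, the 2 brightest genes of each role group, and the 5 genes most like the 8 in pattern. Not every gene so chosen is reported here. Cyp4a12a, Cyp4a14, Cyp4a10, Acsm5, Fgf21, Hbb-bh1, Alb, Psg23 and Gcm1 were added after their values were seen. The Y-linked genes and Xist were looked at because an earlier account of these data used them. The other marker lists were macrophage (median difference 0.04), megakaryocyte (0.18), endothelial and mesenchymal (0.02), trophoblast (-0.21 over the 4 of 13 that were tested), gonad and adrenal (0.66) and kidney (0.47). At an unadjusted limma p under 0.05, gonad and adrenal gave 2 of the 8 genes tested, kidney 2 of the 9 tested, and the rest 0. The share over all genes tested was 2.84%.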

Additional observations from a re-analysis of the deposited data

How the results depend on the processing

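Each of the 8 differences was recomputed under 18 alternatives, and under none of them did a gene have an adjusted p under 0.05. Acadl and Acadvl kept a positive difference throughout (0.063 to 0.40 and 0.15 to 0.31). The sign turned for Acadm under quantile normalization (-0.030). With arrays centred on the median log2 signal of the hepatocyte markers, it turned for Ppara (-0.018), Cpt1a (-0.014) and Acadm (-0.049). It also turned for Ppargc1a (-0.0088) and Cpt2 (-0.10) when all probes of a gene were averaged, which brings in the dimmer probe. Leaving out 1 array gave, from lowest to highest, -0.074 to 0.26 for Ppara, -0.17 to 0.28 for Acadm, -0.28 to 0.19 for Hadha, 0.028 to 0.28 for the median of the 8, -0.088 to 0.21 for the median of the pathway list, and 0 to 1 for the number of the 11 probes with an unadjusted p under 0.05. For Ppara the sign turned without CD array 1 (-0.074) and without HFD array 1 (-0.0038), for Acadm without CD array 1 (-0.17), and for Hadha without CD array 2 (0.19). The cause was not tested. The methods' t-test, with or without Welch's correction, found 0 of the 11 probes under an unadjusted p of 0.05. Of all tested probes, 5.05% fell below it without the correction and 2.40% with it. Over all probes, leaving out HFD array 1 gave 6 adjusted calls, and normexp, run on the median brightness since the mean was not among the columns used here, gave 1. Neither included the 8 genes.

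The arrays that share a number were set against each other after seeing the data. On the arrays numbered 1 only, Hadha was 0.19, the median of the 8 was 0.33 and that of the pathway list 0.23. On those numbered 2 only, Ppara was -0.17, Ppargc1a -0.043, Acadm -0.19 and the pathway median -0.11. The replicate number is not stated to pair samples, and the deviations of same-numbered arrays from their group means correlated at -0.10 over probes. With the replicate block, the differences were the same by construction (0.25 for Acadvl, unadjusted p = 0.390), and none of the 11 probes had an unadjusted p under 0.05, against 1511 probes in all, and 1383 without the block.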
